A study of Mus musculus with 4 samples.

Results

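The genes described here are 10 transcripts that rise when cells are short of oxygen and that do not encode glycolytic enzymes: Bnip3, P4ha1, P4ha2, Pdk1, Adm, Ddit4, Ndrg1, Vegfa, Slc2a1 and Egln3. Every probe set that the platform annotation assigned to 1 of these symbols and to no other was taken, which gave 23 probe sets for all 10 genes, out of 18193 genes with such a probe set in the series. Values came from 4 arrays of autopod RNA from C57BL/6 mouse embryos at E11.25. The autopod is the distal end of the limb bud, from which digits and wrist or ankle form, and the dissected piece matched the domain of Hoxd13 expression in fore- and hindlimbs. The 2 Hox13dKO samples came from embryos that were Hoxa13-/- and HoxDdel/del, that is, without functional Hoxa13 and with Hoxd11, Hoxd12 and Hoxd13 deleted together. The 2 control samples came from wild-type embryos of the same stage. Titles number the samples of each group as biological replicates, and no label says how many embryos each sample holds. In whole pieces of tissue, more RNA per cell and more cells of a type that expresses a gene cannot be told apart.

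Cells sense oxygen through prolyl hydroxylases, the Egln enzymes, which mark the alpha subunits of hypoxia-inducible factor (HIF) for destruction through the Vhl protein. When oxygen is scarce the alpha subunits Hif1a and Epas1 persist, pair with Arnt and bind a short element in the control regions of target genes. HIF is thus controlled mainly at the protein level, and its transcripts need not move with its targets. In the limb, Hif1a is known for its part in cartilage formation and in the survival of chondrocytes far from blood vessels.

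The core letters of the element that HIF binds, ACGTG or GCGTG on either strand, were looked up in RefSeq windows of 300 bases (GRCm38.p6), from 250 bases before to 50 after an annotated start. Such windows existed for 9 of the 10 genes, 11 windows in all. At least 1 window of each of these 9 genes held a match, as did windows of 46.7% of all 27025 genes in that table. ACGTG was found in 7 of the 11 windows against 19.6% of 32851 windows, and GCGTG in 8 of the 11 against 32.4%. The windows of the 3 genes with the lowest p-values below and of Adm, the gene with the highest difference, are printed 5′ to 3′ in the gene's direction, with every match in capitals, reverse complements included. Of Pdk1, which has 2 windows, the one with matches is printed, and the other holds 0. Vegfa, on the minus strand, also has 2 windows. The upstream one, chr17:46032328-46032627, holds 0 matches, and the 2 matches lie in the downstream one, chr17:46025114-46025413. In the Bnip3 window, matches on both strands overlap in a run of 6 letters. A match is a description of the sequence and does not show that the factor binds there.
Bnip3, chr7:138909457-138909756, minus strand: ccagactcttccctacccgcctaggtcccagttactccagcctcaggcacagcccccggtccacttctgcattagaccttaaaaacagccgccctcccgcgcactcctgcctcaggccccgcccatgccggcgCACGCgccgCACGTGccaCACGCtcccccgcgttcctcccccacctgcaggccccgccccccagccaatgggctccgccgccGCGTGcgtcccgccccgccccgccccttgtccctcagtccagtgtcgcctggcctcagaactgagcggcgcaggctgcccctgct
P4ha1, chr10:59323046-59323345, plus strand: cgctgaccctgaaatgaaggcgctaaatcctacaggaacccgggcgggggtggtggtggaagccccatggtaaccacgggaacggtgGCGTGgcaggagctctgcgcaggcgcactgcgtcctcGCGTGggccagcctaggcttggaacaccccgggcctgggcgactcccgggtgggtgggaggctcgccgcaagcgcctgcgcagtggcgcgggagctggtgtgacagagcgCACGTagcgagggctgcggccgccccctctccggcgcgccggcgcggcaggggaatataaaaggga
Pdk1, chr2:71872974-71873273, plus strand: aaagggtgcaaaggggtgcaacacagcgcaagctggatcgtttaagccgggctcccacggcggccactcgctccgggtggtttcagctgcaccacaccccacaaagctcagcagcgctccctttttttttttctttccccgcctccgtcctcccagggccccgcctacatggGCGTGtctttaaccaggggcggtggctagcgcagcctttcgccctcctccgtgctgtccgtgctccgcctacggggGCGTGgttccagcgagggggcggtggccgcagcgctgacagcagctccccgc
Adm, chr7:110627407-110627706, plus strand: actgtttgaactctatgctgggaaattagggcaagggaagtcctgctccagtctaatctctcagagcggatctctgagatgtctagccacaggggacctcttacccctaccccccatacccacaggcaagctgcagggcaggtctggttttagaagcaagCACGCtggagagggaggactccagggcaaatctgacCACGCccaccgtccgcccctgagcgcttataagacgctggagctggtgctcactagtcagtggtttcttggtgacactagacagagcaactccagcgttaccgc

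Signals are MAS5 units on a linear scale, and every array had an equal trimmed mean as deposited. Median signals were 66.1 and 81.2 in Hox13dKO replicates 1 and 2, and 65.8 and 85.7 in wild type replicates 1 and 2. Ratios of 5′ to 3′ actin signal, a sign of RNA quality, were 0.728 and 0.771 in Hox13dKO against 0.473 and 0.764 in wild type. All 4 targeted Hox genes were lower on both Hox13dKO arrays and passed the test, with log2 differences from -10.08 to -2.17. Hoxd13 lay under the floor of 14.1 units on both Hox13dKO arrays against 14540 and 16117 in wild type, and Hoxa13 read 52.4 and 58.0 against 842 and 1463. Hoxd12 read 5.23 and 33.5 against 1208 and 2171. Hoxd11, although labelled as deleted, still read 348 and 454 against 1831 and 1745. The mesenchymal markers other than Hoxa13 and Hoxd13 summed to 36731 and 33856 units in Hox13dKO against 37492 and 37145 in wild type. Their median log2 difference was -0.21 over 11 genes, with a range from -1.29 for Tbx2 to 0.83 for Tbx3, so similar sums do not mean that each marker was unchanged. Both Hox13dKO arrays lay below both wild-type arrays for 5 of the 11, against 2629 of the 13072 genes tested. They lay above both for 2, against 17.1% of genes.

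All 10 hypoxia-induced genes had a higher mean log2 signal in Hox13dKO than in wild type, and 1 of the 10, Bnip3, passed the test across all probe sets. The log2 differences of the brightest probe sets ran from 0.46 for Vegfa to 1.89 for Adm, with a median of 1.13, against a median of -0.027 over the 13072 genes tested. By probe set, 22 of the 23 were bright enough to be tested. In 18 of these 22 both Hox13dKO arrays lay above both wild-type arrays, against 16.3% of all probe sets tested. The 18 include 1 probe set of Adm and 1 of Ndrg1 with wild-type mean log2 signals of 3.82 and 4.87. Both means lay under the brightness filter of 5.31, so these were tested only because Hox13dKO was high and add no support. Of the 22, 2 rose (limma, Benjamini-Hochberg adjusted p under 0.05), 1 of Bnip3 and 1 of Pdk1, where 0.115% of the 27022 probe sets tested rose. By brightest probe set, 0.161% of genes rose. Both Hox13dKO arrays lay above both wild-type arrays for 8 of the 10 genes, Ddit4 and Vegfa being the exceptions, against 17.1% of all genes tested. The 10 genes and the lists below were chosen with earlier results of these data known. The shares of all genes set beside them are therefore a description and do not test the set. With replicate 2 of Hox13dKO left out, 0 of the 22 passed in limma, 8 of 22 were higher at an unadjusted p under 0.05 (2.37% of all probe sets), and the median difference was 0.64.

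**Figure D1:**
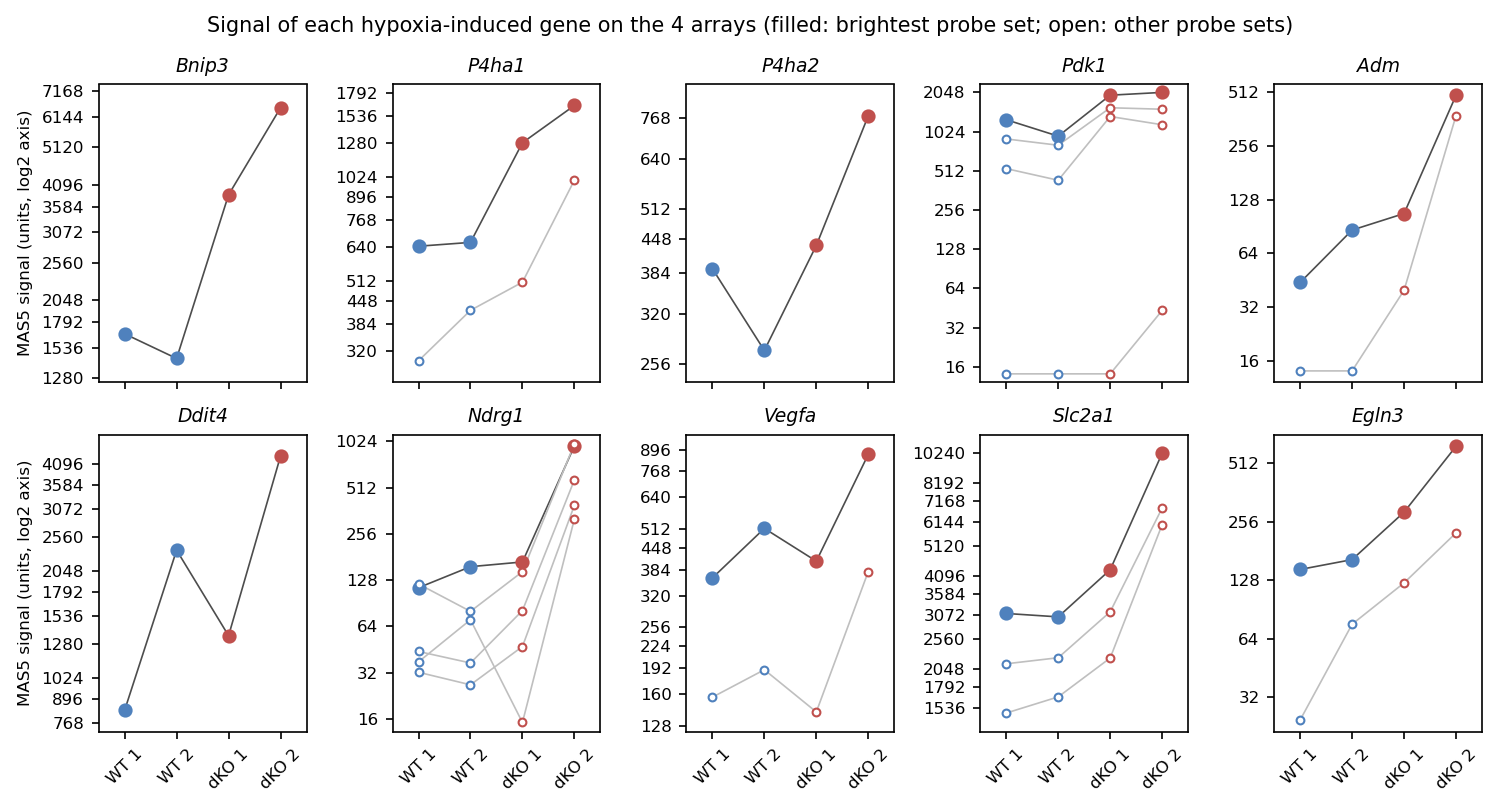
MAS5 signal in units (y, log2 axis, a scale of its own in each panel) on the 4 arrays (x; WT, wild type; dKO, Hox13dKO) for each of the 10 genes. Filled points are the brightest probe set, open points the others, and lines join 1 probe set across arrays; values under the floor of 14.1 units are drawn at it. By brightest probe set, Hox13dKO replicate 2 lies above both wild-type arrays for 10 of 10 genes, against 32.7% of all genes tested. It lies above Hox13dKO replicate 1 for all 10, against 51%.

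Hox13dKO replicate 2 stood apart from the other 3 arrays for most of these genes. It read higher than Hox13dKO replicate 1 for all 10, where 51% of all genes did so, and at least 2-fold higher for 6 of the 10 (Adm, Ddit4, Ndrg1, Vegfa, Slc2a1 and Egln3) against 4.87% of genes. Replicate 2 lay above both wild-type arrays for 10 of 10 genes, against 32.7% of genes, and replicate 1 for 8 of 10, against 30.3%. At least 2-fold above both wild-type arrays were 6 of the 10 genes on replicate 2 (Bnip3, P4ha1, Adm, Ndrg1, Slc2a1 and Egln3), against 1.81% of genes. On replicate 1 it was 1 of the 10, Bnip3, against 1.14% of genes. The median log2 difference from the wild-type mean was 0.64 on replicate 1 and 1.68 on replicate 2. No label records a difference between the 2 Hox13dKO samples.

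**Figure D2:**
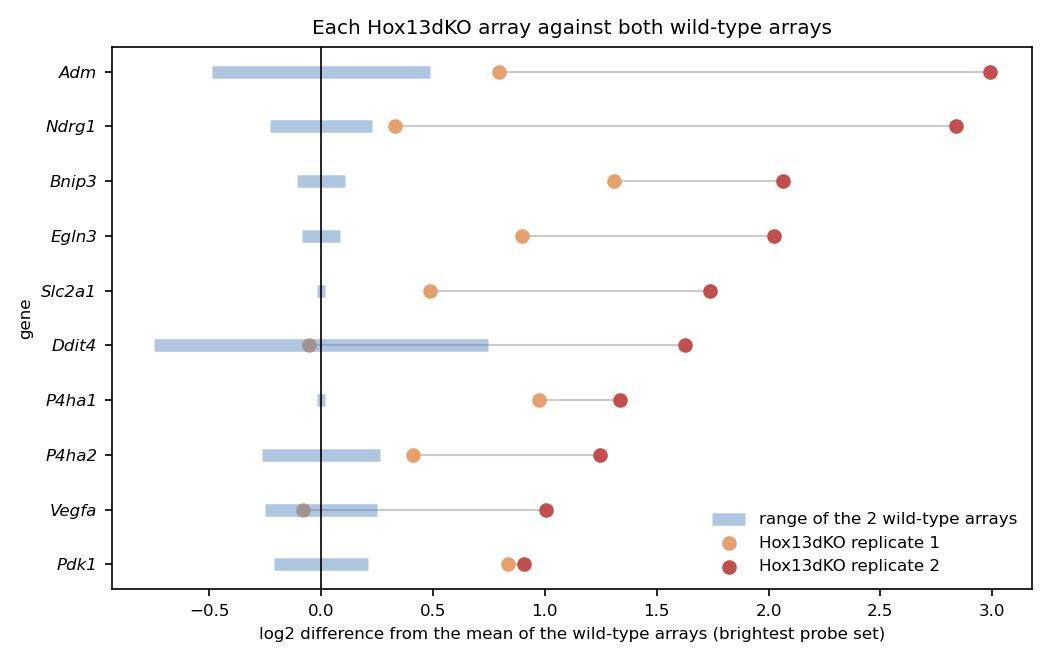
Log2 difference of each Hox13dKO array from the mean of the wild-type arrays (x) for the brightest probe set of each gene (y, ordered by replicate 2); the blue band spans the 2 wild-type arrays. Pdk1 reads alike on both Hox13dKO arrays (0.84 and 0.91), while Ndrg1 lies at 0.33 on replicate 1 and 2.84 on replicate 2.

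Bnip3, a mitochondrial outer membrane protein that promotes mitophagy, had signals of 3851 and 6493 in Hox13dKO against 1672 and 1442 in wild type. Both Hox13dKO arrays were high, and the groups did not overlap. The means were 5172 ± 1868 and 1557 ± 162 (SD, n = 2 each). The log2 difference was 1.69 ± 0.23 (SE), 3.22-fold, with a limma adjusted p of 0.0461. Replicate 1 lay 2.30-fold and replicate 2 3.88-fold above the higher wild-type array. This call stands close to the threshold. It was lost with no floor (adjusted p = 0.0516), with no filter (0.501), with no intensity trend (0.601) and when replicate 2 of Hox13dKO was left out (0.167, log2 difference 1.31).

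Pdk1, a kinase that inhibits pyruvate dehydrogenase and so keeps pyruvate out of the citric acid cycle, had similar signals on both Hox13dKO arrays. Its brightest probe set read 1953 and 2052 in Hox13dKO against 1265 and 946 in wild type. Its log2 difference of 0.87 ± 0.18 (SE) had a limma adjusted p of 0.162. With wild type replicate 1 left out the difference was 1.08. A dimmer Pdk1 probe set read 1339 and 1158 against 533 and 433 and rose by 1.37 ± 0.19 on the log2 scale, 2.59-fold (limma adjusted p = 0.0457). That call was lost with no filter (adjusted p = 0.333), with no intensity trend (0.591) and when either Hox13dKO array was left out (0.369 for replicate 1, 0.253 for replicate 2). The other tested probe set differed by 0.86 ± 0.15, with signals of 1564 and 1523 against 901 and 806. The groups did not overlap in any of these 3 probe sets. In the fourth, which was too dim to test, Hox13dKO replicate 2 read 43.3 and the other 3 arrays lay under the floor.

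P4ha1 and P4ha2 encode catalytic subunits of the prolyl 4-hydroxylase that modifies collagen in the endoplasmic reticulum. P4ha1 read 1283 and 1644 in Hox13dKO against 644 and 660 in wild type by its brightest probe set. The groups did not overlap, and the gap between them was wider than the spread within either. The log2 difference of 1.16 ± 0.18 (SE), 2.23-fold, did not pass (limma adjusted p = 0.0719). It passed when only the brightest probe set of each gene was tested (adjusted p = 0.0273). The difference was 1.14 with wild type replicate 1 left out and 1.17 with wild type replicate 2 left out. The other P4ha1 probe set read 507 and 999.8 against 300.1 and 420.0, a log2 difference of 1.003 ± 0.33. P4ha2 read 435 and 776 against 392 and 272. Its groups came close to each other, with replicate 1 only 1.11-fold above the higher wild-type array, and its log2 difference was 0.83 ± 0.32 (limma adjusted p = 0.703). Against the wild-type mean, replicate 1 alone lay at 0.41 and replicate 2 alone at 1.25.

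Egln3 is itself an oxygen-sensing prolyl hydroxylase and a target of HIF, so it forms part of a feedback loop. Its brightest probe set read 287 and 626 in Hox13dKO against 145 and 163 in wild type. Hox13dKO replicate 1 was intermediate and the groups did not overlap. The log2 difference was 1.46 ± 0.38 (SE), 2.75-fold (limma adjusted p = 0.334). Replicate 1 alone lay at 0.90 and replicate 2 alone at 2.02. The difference passed after median centring (1.496, adjusted p = 0.0167), and it was 1.54 with wild type replicate 2 left out. The other probe set read 124 and 224 against 24.3 and 75.8, with a log2 difference of 1.96 ± 0.64. Wild-type signals of that probe set are dim and differed 3.12-fold between the arrays.

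Slc2a1 encodes GLUT1, the main basal glucose transporter. By its brightest probe set it read 4297 and 10226 in Hox13dKO against 3104 and 3026 in wild type. Replicate 2 was 2.38-fold above replicate 1, while the wild-type arrays differed by a factor of 0.975. The log2 difference of 1.11 ± 0.34 (SE) had a limma adjusted p of 0.493. It passed after median centring (1.149, adjusted p = 0.0342). The difference was 1.13 with wild type replicate 1 left out and 1.09 with wild type replicate 2 left out. On Hox13dKO replicate 1 alone it was 0.49 and on replicate 2 alone 1.74, and 1 array has no error of its own. All 3 Slc2a1 probe sets showed this pattern, with differences from 1.08 to 1.22 and no overlap between groups. Their replicate 2 signals were 2.17-fold to 2.70-fold above replicate 1.

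Ndrg1, a cytoplasmic stress-response protein, was far higher on Hox13dKO replicate 2 than on the other arrays. Its brightest probe set read 168 on Hox13dKO replicate 1 and 956 on replicate 2, against 114 and 156 in wild type. Replicate 1 lay 1.07-fold above the higher wild-type array and replicate 2 6.11-fold. The log2 difference was 1.58 ± 0.69 (SE; limma adjusted p = 0.799), with 0.33 on replicate 1 alone and 2.84 on replicate 2 alone. After median centring the difference was 1.62 with a smaller SE of 0.39, and it passed (limma adjusted p = 0.0143). In that setting the SE of P4ha1 rose from 0.18 to 0.37. The smaller SE of Ndrg1 therefore does not mean that its own Hox13dKO arrays lay close together. The other 4 Ndrg1 probe sets differed by 0.43 to 2.42. The 1 of them with a wild-type mean log2 signal of 4.87 was tested only because Hox13dKO was high and adds no support. In all 5 probe sets replicate 2 was the highest array, by 5.70-fold to 21.1-fold over replicate 1. In 4 of the 5 replicate 1 also lay above both wild-type arrays, by at most 1.85-fold over the higher one. In the probe set at 0.43, replicate 1 read 15.1, below both wild-type arrays at 37.6 and 70.6.

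Adm encodes adrenomedullin, a vasodilator peptide that acts on endothelium. Its brightest probe set read 107 and 491 in Hox13dKO against 44.0 and 86.5 in wild type, with no overlap but a narrow gap at replicate 1. The log2 difference of 1.89 ± 0.71 (SE) did not pass (limma adjusted p = 0.679). It was 0.79 on replicate 1 alone and 2.99 on replicate 2 alone. It passed after median centring (1.93, adjusted p = 0.00805), and it was 2.38 with wild type replicate 2 left out. The second Adm probe set read 39.9 and 378 in Hox13dKO, and both wild-type arrays, at 7.89 and 6.98, lay under the floor. Against that floor Adm was at least 2.83-fold higher on replicate 1 and at least 26.8-fold higher on replicate 2. This probe set was tested only because Hox13dKO was high, so these folds add no support.

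Ddit4, an inhibitor of the growth regulator mTORC1 that many stresses induce, overlapped between the groups. It read 1348 and 4312 in Hox13dKO against 832 and 2345 in wild type, and replicate 1 lay below the higher wild-type array. By brightest probe set it was the only 1 of the 10 genes whose wild-type arrays differed at least 2-fold (2.82-fold), as 5.25% of all genes did in the same direction. Its log2 difference was 0.79 ± 0.58 (SE; limma adjusted p = 0.922). It was -0.051 on replicate 1 alone and 1.63 on replicate 2 alone. With wild type replicate 2, the higher one, left out it was 1.54, and with wild type replicate 1 left out it was 0.040.

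Vegfa, the main growth factor for blood vessels, had the smallest difference of the 10. Its brightest probe set read 408 and 866 in Hox13dKO against 363 and 514 in wild type, and the other read 141 and 380 against 157 and 190. In both, Hox13dKO replicate 1 lay below a wild-type array and replicate 2 above both. The log2 difference of the brightest was 0.46 ± 0.35 (SE; limma adjusted p = 0.929). The sign turned with replicate 2 of Hox13dKO left out (-0.081), and with replicate 1 left out it was 1.004.

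**Figure D3:**
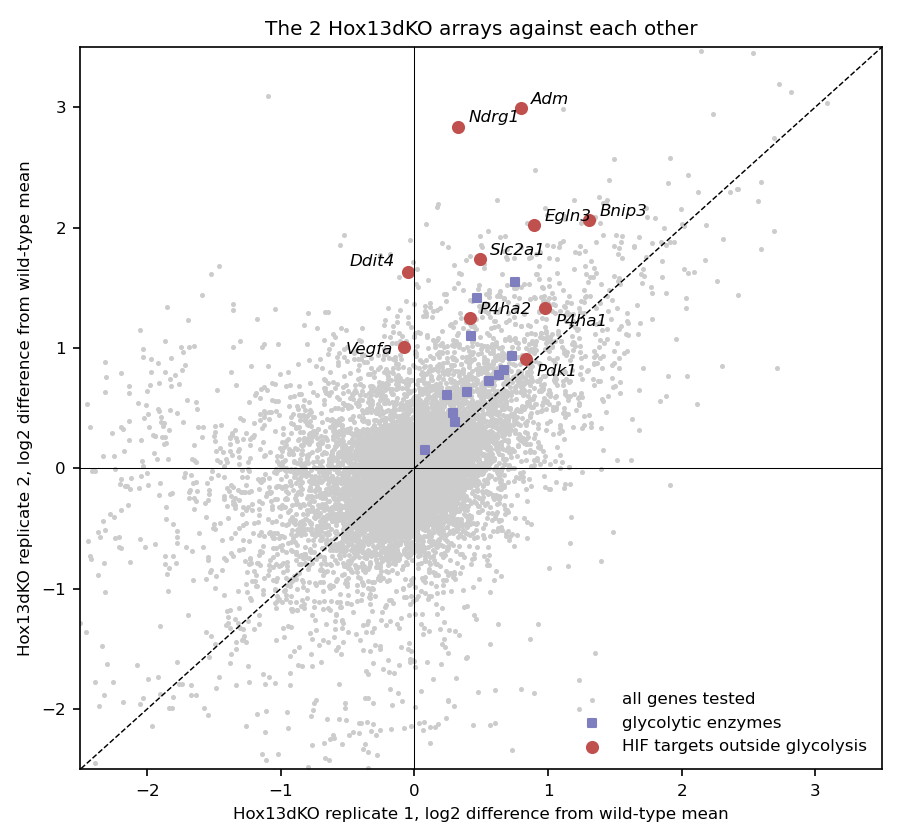
Log2 difference from the wild-type mean on Hox13dKO replicate 1 (x) and replicate 2 (y), brightest probe set of each gene; grey points are the 13072 genes tested, of which 84 lie outside the axes, and the dashed line marks equal values. All 10 genes lie above the line, Pdk1 closest to it and Ndrg1 farthest; the 12 glycolytic enzymes tested also lie above it, mostly near it.

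Glycolytic enzymes, which HIF also induces, had more similar signals on the 2 Hox13dKO arrays. Of 12 tested, 0 passed in limma, 9 were higher at an unadjusted p under 0.05 (4.26% of all genes), all 12 had positive differences, and 11 showed no overlap between groups (17.1% of all genes). Their median log2 difference was 0.67, with 0.45 on replicate 1 and 0.75 on replicate 2. Aldoa, an aldolase, read 13936 and 16015 against 8183 and 8634, a difference of 0.83 ± 0.13 (SE; limma adjusted p = 0.0763). Tpi1 (0.74 ± 0.13), Pfkl (0.70 ± 0.13) and Pgk1 (0.64 ± 0.13) were next by p. Replicate 2 read above replicate 1 for all 12, where 51% of all genes did so. It was at least 2-fold above for 0 of the 12, near the share of 4.87% of all genes. The median of their difference between these arrays was 0.18, against 1.11 for the 10 genes. No test compared the 2 lists.

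Of 46 further names of HIF targets outside glycolysis, 41 had a probe set and 39 were tested. In limma 0 passed, while 12 had an unadjusted p under 0.05, all higher, where 4.26% of genes tested were higher at that p. Differences were positive for 36 of the 39, with a median of 0.41, and 25 showed no overlap with Hox13dKO above, against 17.1% of genes. The median was 0.31 on replicate 1 and 0.65 on replicate 2. Ankrd37, an ankyrin-repeat protein, read 499.6 and 839 against 281 and 245 (log2 difference 1.30 ± 0.28 SE, limma adjusted p = 0.210). Bhlhe40, a transcriptional repressor, read 152 and 379 against dim wild-type signals of 56.4 and 20.9 (2.81 ± 0.65). Its wild-type mean alone would not have passed the brightness filter. Fam162a, a mitochondrial protein, differed by 0.54 ± 0.14, and Plod1, a collagen lysyl hydroxylase, by 0.66 ± 0.18. Members with values at or below wild type also occurred, such as the collagen lysyl hydroxylase Plod2 at -0.21 ± 0.18, named here after its value was seen.

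**Figure D4:**
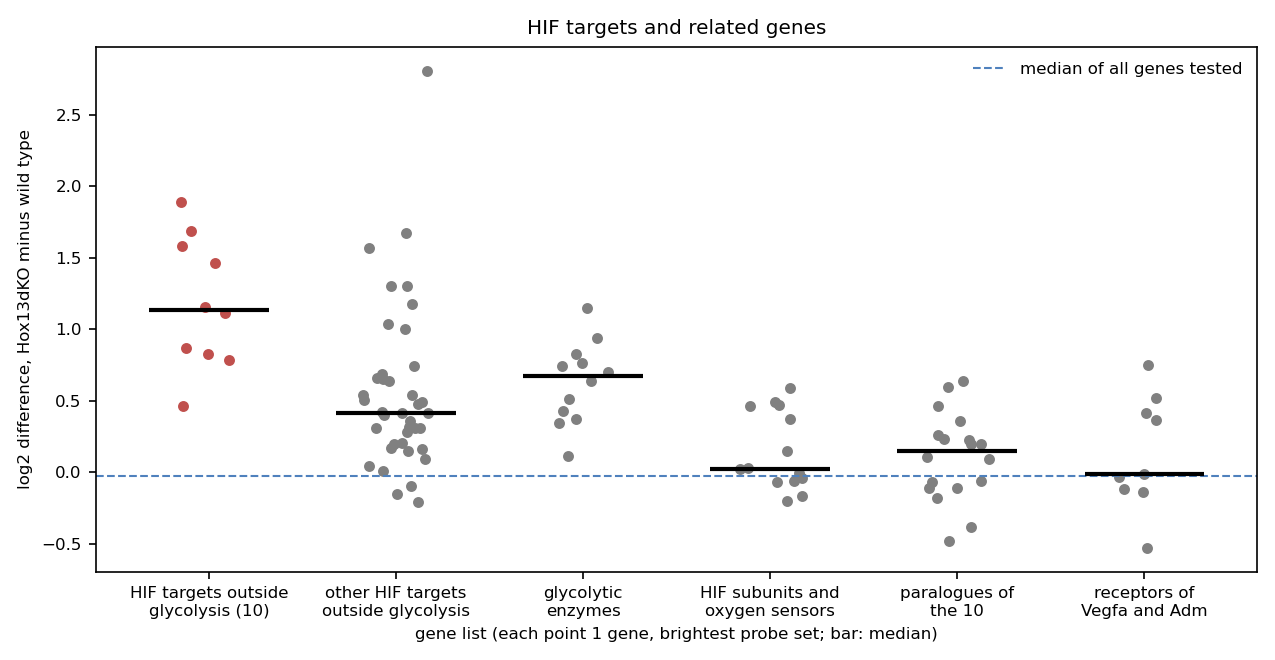
Log2 difference, Hox13dKO minus wild type (y), of the brightest probe set of each gene tested in 6 lists (x); bars are list medians and the dashed line is the median of all genes tested, -0.027. The median of the 10 genes is 1.13, and that of HIF subunits and oxygen sensors 0.025.

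Transcripts of HIF itself and of its sensors did not show a common shift. Of 14 tested, 0 passed in limma, 2 were higher at an unadjusted p under 0.05 (Cited2 and Egln1; 4.26% of all genes), 8 differences were positive and 6 negative, and the median was 0.025. Hif1a, the main alpha subunit and named here after its value was seen, read 5805 and 6016 in Hox13dKO against 6543 and 5886 in wild type (log2 difference -0.071 ± 0.13 SE, limma adjusted p = 0.974). Epas1, the other main alpha subunit, differed by 0.47 ± 0.25 and Hif3a by 0.37 ± 0.24. Cited2, a HIF-induced competitor for the coactivator p300, differed by 0.49 ± 0.15 (limma adjusted p = 0.493). Egln1, the main oxygen sensor and also a HIF target, differed by 0.47 ± 0.16 (limma adjusted p = 0.599) with no overlap between groups. These are transcript levels, and HIF protein was not measured.

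Paralogues of the 10 genes, most of which are not typical HIF targets, were measured beside them. Of 18 tested, 0 passed in limma, 2 were higher at an unadjusted p under 0.05 (4.26% of all genes), and the median was 0.15. They were led by Vegfd, a lymphatic growth factor of the VEGF family (0.64 ± 0.21 SE), Egln1, Vegfc (0.59 ± 0.31) and Pdk3 (0.26 ± 0.16). Egln1, which is 1 of the 2 at that unadjusted p, and Egln2 are also counted among the HIF sensors above. Receptors and co-receptors of Vegfa and Adm had 0 of 9 past in limma, 1 higher at an unadjusted p under 0.05, near that share, and a median of -0.0091. Kdr, the main VEGF receptor of endothelium, read 424 and 652 against 294 and 334 (0.75 ± 0.26, limma adjusted p = 0.639). Ackr3 (0.36 ± 0.17), Calcrl, the adrenomedullin receptor (0.52 ± 0.29), and Flt1 (0.41 ± 0.29) followed.

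Some markers of other cells in the limb bud also read higher in Hox13dKO. The 12 endothelial markers summed to 5667 and 6810 units in Hox13dKO against 4509 and 5260 in wild type, and 5 of 12 showed no overlap with Hox13dKO above, as did 17.1% of all genes tested. The 8 erythroid markers tested summed to 96712 and 109479 against 77352 and 100571, with 6 of 8 above. Most of each sum came from the globins Hbb-bh1, Hbb-y and Hba-x. At least 2-fold above both wild-type arrays were 3 of the 8 on replicate 1 (1.14% of all genes) and 0 on replicate 2 (1.81%). The 9 macrophage markers tested summed to 2143 and 2217 against 1368 and 1620, with 5 of 9 above. Muscle precursor markers (8 tested) summed to 1879 and 3786 against 832 and 780, with 6 of 8 above. Of all these markers 1 passed the test, the muscle gene Actc1, which rose and read 880 and 2252 of these Hox13dKO sums. The precursor markers Pax3 and Met had negative log2 differences, -1.16 and -0.25, and Pax7 was too dim to test. Ectodermal markers summed to 10312 and 13077 against 10409 and 9514, with 5 of 11 above. Between the 2 Hox13dKO arrays, median log2 differences (replicate 2 minus replicate 1) were 0.26 for endothelial, -0.24 for erythroid, 0.066 for macrophage, 0.79 for muscle and 0.22 for ectodermal markers, against 1.11 for the 10 genes. The part of these cells in the results above was not tested.

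Stress genes were measured because Ddit4 and Ndrg1 also respond to signals other than low oxygen. Of 12 genes of the integrated stress response 0 passed in limma, 1 was lower at an unadjusted p under 0.05 (2.99% of all genes), and the median was -0.15. Replicate 2 read above replicate 1 for 10 of the 12 (51% of all genes), with a median log2 difference of 0.28 between these arrays. Of 10 immediate early genes 0 passed in limma and 1 was higher at an unadjusted p under 0.05 (4.26% of all genes). Replicate 2 read above replicate 1 for 9 of the 10 (51% of all genes) and at least 2-fold for 3 (4.87% of all genes). The median log2 difference between these arrays was 0.50. Fos, an immediate early gene named here after its values were seen, read 95.0 and 381 in Hox13dKO against 87.3 and 82.2 in wild type, so it was also high on replicate 2. The part of handling or stress in the results above was not tested.

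Over the 4 arrays, the genes whose pattern was most like that of Bnip3 were Sostdc1, Wscd2, Gjb6, Dusp5 and Dkk2. Likeness was the root mean square distance between log2 deviations from each gene's mean, and it ran from 0.116 to 0.176 for these 5. Among 13071 genes ranked this way, Egln3 came 12th (distance 0.220), P4ha1 43rd and Slc2a1 63rd. With 4 arrays many genes share any pattern, so these ranks are a description only.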

How the data were processed

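Biotinylated cRNA from 2 Hox13dKO and 2 wild-type samples was hybridised to 4 arrays. The deposited value of each probe set is a linear intensity, a MAS5 signal per the submitters' processing notes, with no version named. The 2% trimmed mean was 500.003 units on every array. Detection calls and scanner data were not used here, so background is unknown per probe set, and the number of arrays limits the precision.

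Of 45101 probe sets, 34958 carried 1 symbol, 932 several and 9211 none. Among those with 1, 34754 matched the RefSeq gene table (GRCm38.p6) and 0 symbols changed. After leaving out 64 control probe sets, signals under the 20th percentile (14.1 units) were raised to that floor, log2 was taken, and the 27022 probe sets with a mean log2 signal at or above the 40th percentile (39.6 units) were tested. The two-sided test of Hox13dKO against wild type was limma's (version 3.58.1, R 4.3.3; eBayes with intensity trend), with p-values adjusted by Benjamini-Hochberg over all probe sets tested, at 0.05. The fit left 2 residual degrees of freedom, to which eBayes added 6.05. A gene's main value is its brightest probe set by mean log2 signal. The steps were run on simulated arrays with independent noise per probe set. Those arrays held no shift shared by many genes on 1 array, so the run does not bear on such a shift. The p-values rest on the spread between these samples, moderated by a trend shared over all probe sets. A low p therefore need not mean a small spread between a gene's own arrays.

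Members and lists were chosen with earlier results of these data known. Named genes are all 10 members, the targeted genes, those of each related list past the threshold or else its up to 4 lowest p, and the 5 nearest Bnip3. Results were recomputed with median centring or quantile normalization, a pseudocount of 16, no floor, no filter or a stricter one (60th percentile), eBayes without trend or with robust estimation, the replicate number as a block, each array left out, 1 probe set or the probe-set mean per gene, and a threshold of 0.10. Windows around starts come from RefSeq. Figures were drawn with matplotlib 3.10.9.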

Additional observations from a re-analysis of the deposited data

How the results depend on the processing

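All 10 genes kept a positive difference under every alternative run for them, except Ddit4 (-0.051) and Vegfa (-0.081) without Hox13dKO replicate 2. With 1 array left out Ddit4 ran from -0.051 to 1.63 and Vegfa from -0.081 to 1.004. Their median stayed between 1.11 and 1.17 under the scaling, floor, filter, eBayes and probe-set alternatives and ran from 0.64 to 1.68 with 1 array left out. By brightest probe set, members past the threshold in limma numbered 5 after median centring, 7 with the replicate block, 2 with 1 probe set per gene, 2 at an adjusted p of 0.10, and 0 with no floor (7 at an unadjusted p under 0.05), no filter (3) or no intensity trend (4). With 1 array left out they ranged from 0 to 6, against 1 in the fit reported. By probe set they numbered 10 after median centring, 12 with the replicate block, 1 with no floor, 0 with no filter (5 at an unadjusted p under 0.05), 0 with no intensity trend (7), and 0 to 11 with 1 array left out, against 2. Over all probe sets 56 passed, with 199 after median centring, 418 with the replicate block, 95 with 1 probe set per gene, 111 at 0.10, 1 with no intensity trend, 0 with no filter (3159 at an unadjusted p under 0.05), and 11 to 525 with 1 array left out (11 and 20 without Hox13dKO replicates 2 and 1, 306 and 525 without wild type replicates 1 and 2). Other HIF targets past the threshold numbered 1 after median centring, 4 with the replicate block and 0 to 3 with 1 array left out, and of HIF subunits and sensors 1, Cited2, passed with the block. The cause of these changes was not tested. After median centring the SE fell from 0.71 to 0.44 for Adm and rose from 0.18 to 0.37 for P4ha1. A pass in that setting therefore need not mean a small spread between a gene's own arrays. Deviations of same-numbered arrays from their group means correlated with r = 0.198 over probe sets. With 2 pairs and no label on what a number shares, the pairing is not established. With the block the 7 members were Bnip3, P4ha1, Pdk1, Egln3 (adjusted p = 0.0288), Slc2a1, Adm (0.0497) and Ddit4 (0.00753), whose arrays differed by 0.70 and 0.88 within same-numbered samples. Where 1 array remained in a group, its spread was taken from the other group, so counts with 1 array left out do not measure spread in that group. The stricter filter left Adm untested by its brightest probe set. Members with every Hox13dKO array above both wild-type arrays numbered 8, and, chosen after seeing the data, 10 without Hox13dKO replicate 1 and 8 without Hox13dKO replicate 2. Signal over background could not be judged for dim probe sets, here those of Adm, Ndrg1 and Bhlhe40 in wild type.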
